A study of Mus musculus with 3 samples.

Results

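Chromatin regions that carried an accessibility peak in embryonic stem cells expressing Halo-Sox2 and in cells expressing Halo-Sox2a, and no peak in the control cells, are described here as gained with both Sox2 proteins. Overlapping peaks of the 3 deposited lists (at least 1 shared bp) were merged into union regions, and the members were kept on chromosomes 1 to 19 and X. The members numbered 11691 of 130604 union regions, or 8.95% of all of them. Of the 53648 regions with a peak in both transgene lists, 21.8% had no control peak, and these are the members. The members were chosen by the presence of peaks in the 3 lists, so their number, their scores and their distance from control peaks are given as a description.

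The study measured open chromatin by ATAC-seq, in which the Tn5 transposase inserts adapters into accessible DNA, with 1 library in each of 3 groups. The Halo-Sox2 group was line SES4.1, induced by doxycycline at 300 ng/mL over 20 h. The Halo-Sox2a group was line SES5.1, induced at 70 ng/mL over 20 h. The control was line SES11, which has no inducible transgene and for which no doxycycline dose is named. All 3 lines derive from the CGR8 line of mouse embryonic stem cells and were kept with LIF and the inhibitors CHIR99021 and PD184352. Both Halo-tagged lines were stained with 50 nM of a Halo dye and sorted through the same fluorescence gate, whereas staining and sorting of the control are not stated. About 50000 cells entered each reaction. The labels name Sox2a and do not describe it. Line, transgene and dose differ together between the groups and cannot be told apart. Any difference of the control in staining or sorting is unknown and cannot be told apart from these. Both gains rest on the same control list.

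SOX2 is a transcription factor with an HMG domain that binds a short AT-rich DNA motif and bends the helix. In embryonic stem cells it works with OCT4, the product of Pou5f1, often at a composite motif, and it is known as a pioneer factor because it can bind DNA wrapped on nucleosomes. FGF signalling through ERK drives these cells towards differentiation, LIF signalling through STAT3 holds them in the naive state, and SOX2 itself is expressed from the endogenous gene in all such cells.

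No expression was measured, so the labelled cell type could be checked only through the loci of marker genes. A control peak lay over or within 1 kb of all 7 stem cell markers examined (Pou5f1, Sox2, Nanog, Esrrb, Zfp42, Klf4 and Tdgf1), as did a Halo-Sox2a peak. In the Halo-Sox2 list 6 of the 7 had one, the exception being Nanog. Fibroblast genes also carried peaks, 9 of 12 in the control, so peaks at such loci do not separate cell types. The lists held 88898 Halo-Sox2, 83995 Halo-Sox2a and 72638 control peaks, and the depth of the libraries is unknown. With the same number of peaks kept from each list, 8315 regions were gained with both. Since every group is a single library, the spread between replicates is unknown and no test was run. In a bulk library, a larger share of cells with an open site and a more open site in each cell cannot be told apart.

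Promoter sequence was the sequence available for these regions, as 300-base windows from 250 bases before to 50 after a gene start (RefSeq, assembly GRCm38.p6). Gained regions touched 340 windows, 337 of them touched by no other class of region. The SOX motif was searched as CCATTGT or CCTTTGT on both strands, so that a match on the opposite strand reads ACAATGG or ACAAAGG. Below are 7 windows with their SOX matches inside the gained region in capitals and the rest in lower case, each 5′ to 3′ on the strand of its gene. Gm41048 and 5430403N17Rik, both long noncoding RNAs, had the highest-scoring regions with a match. Prickle2, Gjb1, Myt1 and Myh7b were the 4 protein-coding genes with 2 matches inside the region. Olig3 is shown as a high-scoring promoter with none. These 7 were chosen after their values were seen.
Gm41048: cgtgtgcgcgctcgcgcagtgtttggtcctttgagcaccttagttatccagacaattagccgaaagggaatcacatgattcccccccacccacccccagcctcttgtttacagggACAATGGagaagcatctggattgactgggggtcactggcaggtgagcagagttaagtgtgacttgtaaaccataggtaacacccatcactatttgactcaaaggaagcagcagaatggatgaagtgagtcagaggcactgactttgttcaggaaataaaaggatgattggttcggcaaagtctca
5430403N17Rik: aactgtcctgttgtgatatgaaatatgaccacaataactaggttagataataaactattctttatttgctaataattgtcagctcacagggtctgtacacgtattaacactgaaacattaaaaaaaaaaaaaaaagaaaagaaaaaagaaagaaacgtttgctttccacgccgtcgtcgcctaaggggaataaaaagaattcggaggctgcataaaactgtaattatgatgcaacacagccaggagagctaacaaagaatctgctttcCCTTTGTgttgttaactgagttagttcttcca
Prickle2: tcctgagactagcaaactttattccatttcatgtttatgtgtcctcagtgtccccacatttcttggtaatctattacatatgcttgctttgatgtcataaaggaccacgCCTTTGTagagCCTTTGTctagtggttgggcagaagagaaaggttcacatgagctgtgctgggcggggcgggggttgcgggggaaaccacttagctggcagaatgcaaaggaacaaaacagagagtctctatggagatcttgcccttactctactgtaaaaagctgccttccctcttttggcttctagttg
Gjb1: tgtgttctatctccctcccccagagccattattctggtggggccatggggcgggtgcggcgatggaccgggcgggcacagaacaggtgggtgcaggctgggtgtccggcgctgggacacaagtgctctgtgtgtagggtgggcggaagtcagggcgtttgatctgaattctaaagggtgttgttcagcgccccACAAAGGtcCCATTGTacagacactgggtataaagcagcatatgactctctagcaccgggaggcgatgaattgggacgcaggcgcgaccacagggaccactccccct
Myt1: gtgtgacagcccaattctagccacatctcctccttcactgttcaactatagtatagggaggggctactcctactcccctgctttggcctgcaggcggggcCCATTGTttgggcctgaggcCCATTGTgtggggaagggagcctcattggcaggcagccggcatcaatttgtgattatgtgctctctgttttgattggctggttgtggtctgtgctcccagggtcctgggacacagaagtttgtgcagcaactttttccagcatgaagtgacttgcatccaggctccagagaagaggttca
Myh7b: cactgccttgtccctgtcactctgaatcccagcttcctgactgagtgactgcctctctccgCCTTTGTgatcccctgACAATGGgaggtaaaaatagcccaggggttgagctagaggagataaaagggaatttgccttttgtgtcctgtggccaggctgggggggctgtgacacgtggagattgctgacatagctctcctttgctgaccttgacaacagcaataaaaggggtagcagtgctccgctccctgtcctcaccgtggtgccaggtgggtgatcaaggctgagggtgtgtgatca
Olig3: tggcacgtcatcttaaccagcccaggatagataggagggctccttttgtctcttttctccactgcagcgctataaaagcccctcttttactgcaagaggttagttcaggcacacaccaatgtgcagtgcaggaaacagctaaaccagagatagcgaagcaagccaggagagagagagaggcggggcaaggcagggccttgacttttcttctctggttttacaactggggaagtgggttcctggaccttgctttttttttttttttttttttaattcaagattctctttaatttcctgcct

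The Gm41048 window (chr13:104914505-104914804, plus strand) lay wholly inside a gained region with a Halo-Sox2 score of 831 and a Halo-Sox2a score of 324. Its match began 135 bases before the start. The 5430403N17Rik window (chr8:35882908-35883207, minus strand) was also wholly inside its region, scored 827 and 319, and the match began 18 bases after the start. Both regions stood above percentile 86 in each list, where the percentile is the share of a list's peaks that rank below the peak by the authors' score.

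Prickle2, a planar cell polarity gene, had 2 copies of CCTTTGT, beginning 141 and 130 bases before the start (chr6:92567317-92567616, minus strand), in a region scored 222 and 125. Gjb1, which encodes the gap junction protein connexin 32, had ACAAAGG at 57 and CCATTGT at 48 bases before the start (chrX:101383482-101383781, plus strand). Its region scored 423 with Halo-Sox2 and 69 with Halo-Sox2a, and the nearest control peak was 745 bp away. Myt1, a zinc finger factor of neural progenitors, had CCATTGT at 150 and 130 bases before the start (chr2:181763082-181763381, plus strand) in a region scored 127 and 73. Myh7b, a myosin heavy chain gene, had CCTTTGT at 189 and ACAATGG at 173 bases before the start (chr2:155610993-155611292, plus strand), in a weak region scored 46 and 43. In these 4 promoters the paired matches began 9 to 20 bases apart. The Olig3 window (chr10:19356289-19356588, plus strand) had no match, although its region scored 648 and 178. Among these 7 windows, matches stood in regions of high and of low score.

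Over all 337 windows, SOX matches were found in 61, or 18.1% (95% Wilson interval 14.4 to 22.6%). The same letters were found in 9.34% of all 32585 promoter windows (9.02 to 9.66%) and in 6.32% of the 14538 windows touched by regions of all 3 lists alone. Windows touched by Halo-Sox2-only regions held a match in 21.1% (17.3 to 25.4%, n = 380) and those touched by Halo-Sox2a-only regions in 16.7% (12.7 to 21.6%, n = 270), and both intervals overlap that of the gained windows. Control-only windows stood at 9.12% (6.34 to 12.9%, n = 296). The SOX letters in reverse order, TGTTACC or TGTTTCC, were in 10.1% of gained windows (7.31 to 13.8%) and in 8.68% of all windows. Intervals cover counting error only, and windows of 1 gene can share bases.

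**Figure D1:**
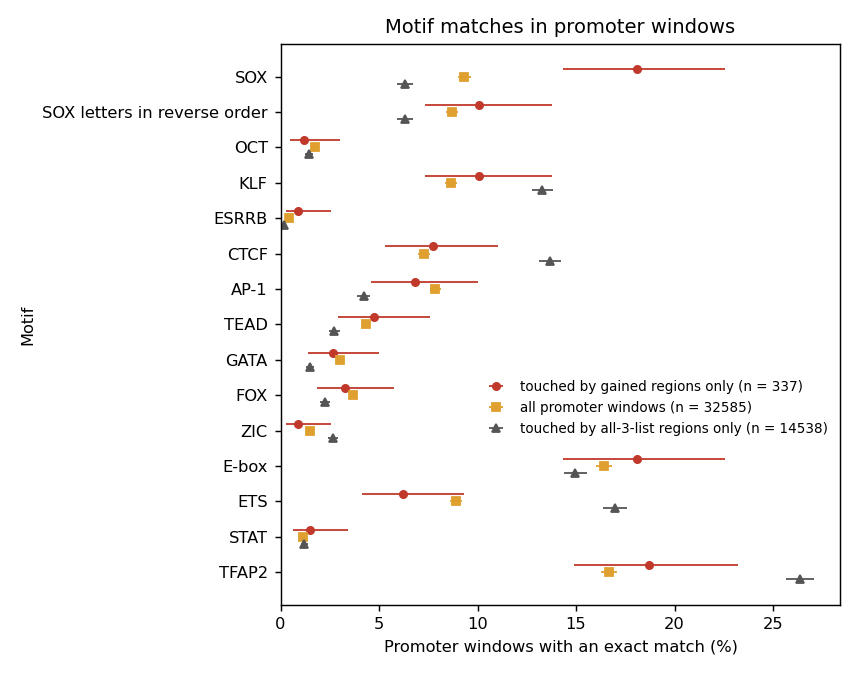
Share of promoter windows (x axis, %) with at least 1 exact match to each motif (y axis), for windows touched by gained regions alone, all windows and windows touched by all-3-list regions alone; lines are 95% Wilson intervals. The SOX point of the gained windows (18.1%) lies apart from that of all windows (9.34%), while the reversed letters (10.1% and 8.68%) lie close together.

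Base composition differed little between gained windows and all windows, with mean GC of 55.6% and 53.9% and a median of 7 CpG in each. Windows of the all-3-list regions had a mean GC of 62.0% and a median of 21 CpG. Within windows under 50% GC, SOX matches were in 24.0% of gained windows (16.7 to 33.2%, n = 100) and 12.45% of all windows. From 50 to 60% GC the shares were 19.1% (13.5 to 26.4%, n = 141) and 9.77%, and from 60% GC they were 10.4% (5.76 to 18.1%, n = 96) and 4.80%. The gained windows thus had the higher share in each of the 3 GC ranges. In the same order, Halo-Sox2-only windows stood at 26.5%, 16.8% and 10.9%, and Halo-Sox2a-only windows at 20.2%, 16.7% and 7.89%. Under 50% GC the reversed letters were also more frequent in gained windows, 18.0% against 11.2% of all windows. They stood at 9.93% and 9.95% from 50 to 60% GC, and at 2.08% and 4.02% from 60%.

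Within the gained windows, the density of matches was higher inside the regions than beside them. The part of the 337 windows inside gained regions (75738 bases) held 62 SOX matches, or 0.819 per kb. The part outside (25362 bases) held 5, or 0.197 per kb. Each window was counted in full, so where windows of 1 gene share bases a match can enter more than once. No interval was computed for these densities. The reversed letters had 0.356 per kb inside and 0.355 outside. In windows of all-3-list regions the SOX densities were 0.217 per kb inside and 0.285 outside. They were 0.922 and 0.574 for Halo-Sox2-only regions, and for Halo-Sox2a-only regions the order was the opposite, 0.417 inside and 0.734 outside. The reversed letters also differed in Halo-Sox2a-only windows, with 0.592 inside and 0.339 outside. In Halo-Sox2-only windows the reversed letters had 0.298 and 0.230, and in all-3-list windows 0.218 and 0.277.

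The SOX share depended on how a gained region was defined. When every list was restricted to peaks above percentile 50, regions with a weak control peak counted as gained, and 11.4% of the 429 windows then touched held a match. Of those 429, 46 were also touched under the main rule, and 8 of these (17.4%, 9.09 to 30.7%) held a match. The other 383 held one in 10.7% (7.99 to 14.2%). The share also showed no steady order by score under the main rule. By Halo-Sox2 percentile it was 17.6% under 25, 9.43% from 25 to 50, 29.8% from 50 to 75 and 24.5% over 75. By Halo-Sox2a percentile it was 26.4%, 11.6%, 12.99% and 28.6% in the same ranges, the last of which held 14 windows.

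The composite SOX-OCT motif was searched as CATTGT or CTTTGT, any 1 base, and ATGNAAA, so it holds the last 6 letters of the SOX motif. It was in 0 of the 337 gained windows, which allows a share of up to 0.890% by the limit of 3 counts and 1.13% by the Wilson interval, and in 15 of the 32585 windows overall. At this number of windows a share like the overall one could not have been seen. The OCT motif ATGCAAAT was in 1.19% of gained and 1.75% of all windows, and the KLF motif (GGGTGTGG or GGGCGTGG) in 10.1% and 8.63%. The all-3-list windows had more matches than gained windows for CTCF (AGNNGGCGC, 13.7% and 7.72%), ETS (CCGGAAG, 17.0% and 6.23%) and TFAP2 (GCCNNNGGC, 26.4% and 18.7%). Over all windows these motifs stood at 7.28%, 8.92% and 16.7%. The all-3-list and gained windows also differed in mean GC, 62.0% and 55.6%. A match describes letters and is not evidence of binding, and the windows cover few of the members: 296 gained regions touched a window.

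Most members lay far from the gene starts used. Starts came from the promoter windows, which covered 17274 of 21120 protein-coding genes (81.8%) and 9520 of 12275 long noncoding RNA genes (77.6%) off chromosome 18 and none on it. Shares near a start are therefore too low and distances too large in every class. Of the 11305 members off chromosome 18, 489 (4.33%, 3.97 to 4.72%) had their midpoint within 1 kb of such a start. The share was 28.7% for all-3-list regions, 2.33% for Halo-Sox2-only regions and 3.45% for Halo-Sox2a-only regions, and 3.04% for the members after a shift by 100 kb. A further 11.1% of members lay at 1 to 5 kb, 54.9% at 5 to 50 kb and 29.6% beyond 50 kb. The median distance to the nearest of these starts was 23434 bp, against 12346 bp for all-3-list regions, 34771 bp for Halo-Sox2-only and 23210 bp for Halo-Sox2a-only regions.

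**Figure D2:**
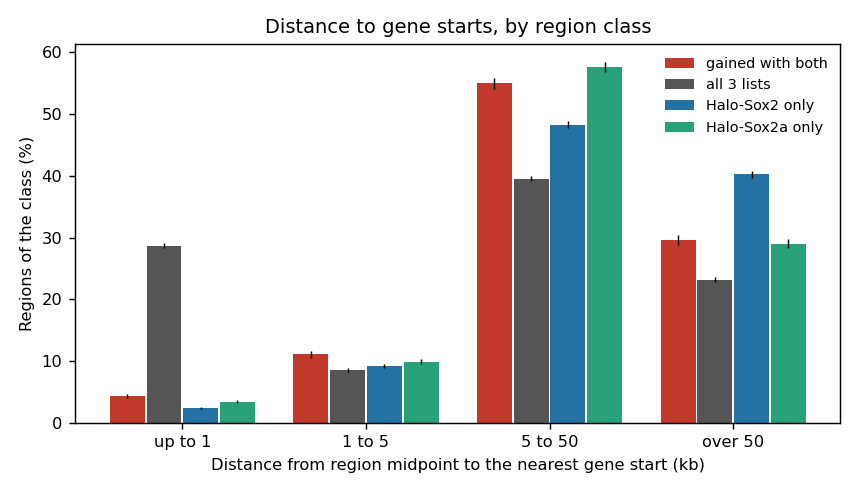
Share of regions (y axis, %) by distance from the region's midpoint to the nearest gene start (x axis, kb), for 4 classes of region; error bars are 95% Wilson intervals. Gained regions reach 4.33% in the nearest class, where all-3-list regions reach 28.7%.

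Over the whole gene table, which gives both ends of each gene, 9.67% of members and 35.0% of all-3-list regions had their midpoint within 1 kb of a gene end. Members moved by 100 kb stood at 8.37%. Halo-Sox2-only regions stood at 6.66%, Halo-Sox2a-only regions at 9.43% and control-only regions at 9.66%. By gene body, 63.8% of members were inside a gene, against 60.2% after the 100 kb shift and 65.6% of all-3-list regions. Protein-coding genes held 55.3% of members, long noncoding RNA genes alone 7.77%, and 36.2% lay outside every listed gene. Members within coding genes were spread nearly evenly along those whose strand the promoter windows gave, and members in the other coding genes were left out. With each gene cut into 5 equal parts from start to end, the parts held 20.9%, 18.7%, 19.4%, 20.2% and 20.8% of 5159 region and gene pairs. For all-3-list regions the first part held 49.4% of such pairs, for Halo-Sox2-only regions 19.6% and for Halo-Sox2a-only regions 18.8%. Across chromosomes the members made up from 8.08% of union regions on X to 10.4% on chromosome 19.

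The rule joins peaks that overlap, so the closeness of a member's 2 transgene peaks is partly set by it. Of the members, 11585 were made of 1 peak from each list. The peaks' midpoints lay a median of 62 bp apart, 1 peak contained the other in 59.5%, and the overlap reached 50% of the shorter peak in 96.7%. In all-3-list regions these values were close, at 60 bp, 55.8% and 98.5%. The members had a median width of 565 bp, against 843 bp for all-3-list regions. The Halo-Sox2 peak was the wider in 60.4% of members and in 38.6% of all-3-list regions.

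Members spread over the whole range of the Halo-Sox2 list and were of middle to low score in the Halo-Sox2a list. The Halo-Sox2 score ran from 13 to 2444 with a median of 149, at percentile 50.6 (quartiles 25.4 and 77.8). The Halo-Sox2a score ran from 13 to 1249 with a median of 73, at percentile 39.4 (quartiles 20.9 and 57.4). All-3-list regions had median percentiles of 61.6 and 72.3. Above percentile 90 stood 12.6% of the members by Halo-Sox2 score and 1.08% by Halo-Sox2a score, and 83 members by both. Scores of different lists share no scale, and percentiles depend on the length of a list.

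The Halo-Sox2 percentile was the higher in 61.3% of members, with a median difference of 8.79 points, and in 28.6% of all-3-list regions, with a median difference of -7.22 points. Across the 11691 members, the Spearman correlation between both percentiles was 0.286, and across the all-3-list regions it was 0.714. This describes regions of the same pair of libraries, in which the member rule restricts the range. Strong in Halo-Sox2 (over percentile 90) and weak in Halo-Sox2a (under 25) were 268 members, and the reverse held for 2. One of those 2 reached the promoter window of Nin, which encodes the centrosomal protein ninein (chr12:70103054-70103651), with scores of 42 and 412. Among the opposite kind was a region on chromosome 1 (95533206 to 95533923), 134 kb from the start of the sialyltransferase gene St8sia4, with scores of 1137 and 19.

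**Figure D3:**
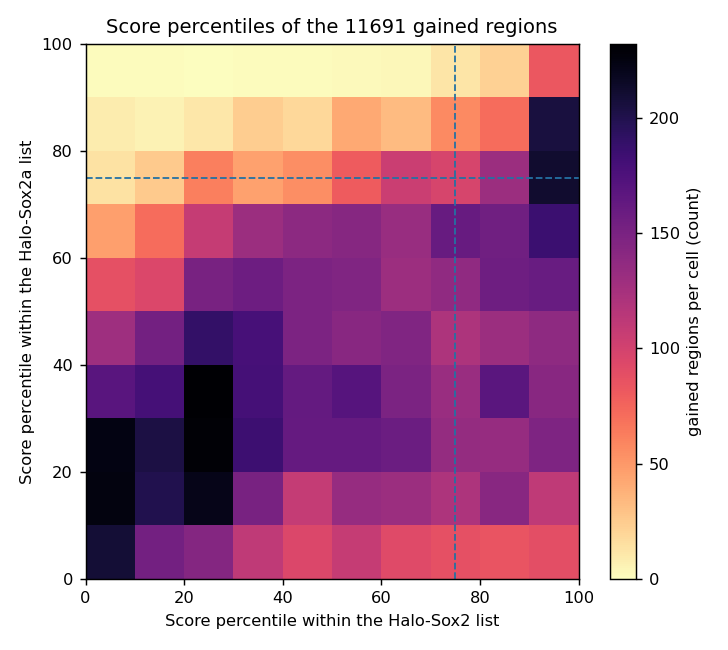
Number of gained regions (colour) by score percentile within the Halo-Sox2 list (x axis) and within the Halo-Sox2a list (y axis), in cells of 10 by 10 points; dashed lines mark percentile 75. Members spread over the whole Halo-Sox2 range and thin out above percentile 75 of the Halo-Sox2a list, where 8.06% of them lie.

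The weaker the transgene peaks, the more often the control peak was missing. Of the regions in both transgene lists with a mean percentile under 10, 54.0% were gained, and the share fell with every further 10 points, to 3.33% from percentile 90. Whether a weak control signal lay just under the calling threshold was not tested. At the edge of the rule, 3 members had a control peak within 10 bp without overlap, at median percentiles of 6.43 and 29.9. The 7 regions just outside, which a control peak overlapped by 10 bp or less, had median percentiles of 39.5 and 24.7.

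The nearest control peak was a median of 7877 bp away from a member (95% order-statistic interval 7663 to 8127 bp, quartiles 3005 and 18807.5 bp). With the control list restricted to peaks above percentile 50 the median was 15597 bp, and with all 3 lists so restricted it was 14860 bp. Halo-Sox2-only regions lay farther, at 11583 bp, and Halo-Sox2a-only regions at 7839 bp. Within 1 kb of a control peak were 9.52% of members, within 10 kb 57.3%, and beyond 100 kb 1.55%. The rule sets the smallest distance, since an overlap would have removed the region. The nearest other union region of any class was an all-3-list region for 32.8% of members and another member for 9.87%. These classes made up 32.1% and 8.95% of all union regions.

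**Figure D4:**
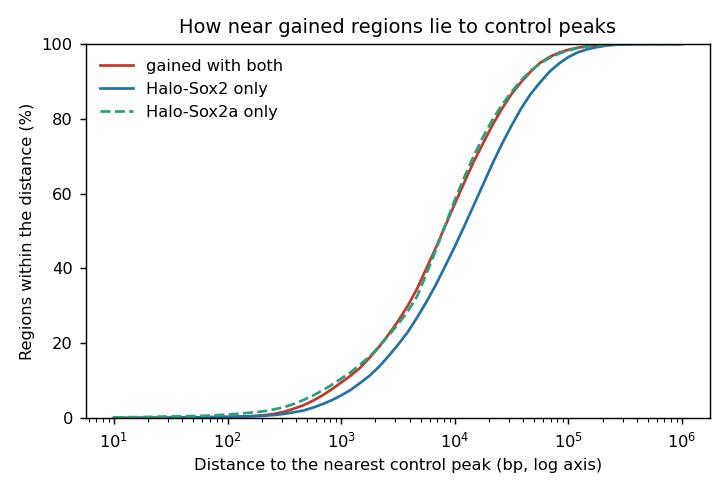
Cumulative share of regions (y axis, %) whose nearest control peak lies within a given distance (x axis, bp, log axis), for gained regions and for regions of a single transgene list. The curve of the gained regions runs with that of Halo-Sox2a-only regions, with 57.3% and 58.3% within 10 kb, and above that of Halo-Sox2-only regions at 45.8%.

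Among the 10 members with the highest mean percentile, 6 lay inside a coding gene. A region in Srgap3, a GTPase-activating protein of neurons, scored 1129 and 647 (chr6:112929634-112930757) and was 19.2 kb from the nearest control peak. One in Txndc12, a thioredoxin-like protein of the endoplasmic reticulum, scored 971 and 785 (chr4:108842759-108843790), 3.89 kb from a control peak. Synpo2, an actin-binding protein of muscle, held a region scored 986 and 562 (chr3:123095125-123095948). Zfp1, a zinc finger gene, held one scored 1055 and 647 (chr8:111657027-111657874). These 4 lay 4.58 to 60.6 kb from the nearest coding gene start used.

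A midpoint within 1 kb of a start of the 17274 coding genes with a promoter window was found for 283 members. The highest by mean percentile lay at 4930522H14Rik (chr4:109530352-109531444), with scores of 1598 and 289. Thsd4, a gene of microfibril assembly, followed with 710 and 231 (chr9:60509946-60510416), 11.6 kb from a control peak. Sh3pxd2b, a podosome adaptor, had 594 and 253 (chr11:32348443-32349056), with a control peak 195 bp away. Olig3, a bHLH factor of the dorsal neural tube, had a control peak 518 bp away and Myo10, the filopodial myosin, one 636 bp away. Rcn3, a calcium-binding protein of the secretory pathway, was the closest of the 10 to its start, at 15 bp, with scores of 335 and 161. Promoter members therefore included some beside open control chromatin and others more than 10 kb from it, among them Plekha6 at 18.7 kb and Clca4b at 13.4 kb.

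Most members had no other member within 12500 bp. Other classes were not grouped in this way, so this is not shown to be particular to the members. With gaps of up to 12500 bp, 9400 stood alone, 927 runs held 2, 116 held 3, 21 held 4 and 1 held 5. The run of 5 spanned 30.3 kb inside Cadm1, a cell adhesion molecule (chr9:47571545-47601798). Its Halo-Sox2 scores ran from 18 to 216 and its Halo-Sox2a scores from 25 to 150, and 3 of its 8 union regions held a control peak. The run in Rin3, a RAB5 regulator (chr12:102319118-102337009), was the run of 4 with the highest mean percentile, by which the named runs of 4 were ordered. Its scores reached 813 and 432. Of the 5 union regions in the Rin3 run, 4 were members, and none held a control peak. The runs in Ttc3, a ubiquitin ligase, and in Apbb2, an adaptor that binds the amyloid precursor protein, held 4 union regions each. All 4 were members in both runs, so the rule left no room for a control peak.

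Counted within 50 kb of a gene, 11488 of 21631 protein-coding genes had at least 1 member. The counts grew with the number of union regions near a gene (Spearman correlation 0.559 across genes, which share neighbouring regions). Nav2, a neuron navigator gene, had the most, with 15 of 68 union regions. Auts2, a neurodevelopmental gene, had 13 of 91, Etl4 12 of 69, and Apbb2, Frmd4a and Tenm4, a teneurin of neuronal wiring, 11 each. Hdac4, a histone deacetylase, had 10 of 26 regions, all inside the gene. These genes are long: 1106 kb for Auts2 and 266.9 kb for Hdac4, against a median of 17.3 kb.

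As a share of the union regions, the median was 7.69% over the 12164 coding genes with at least 10 of them, and 3440 of these genes had no member. Lonrf1, a RING finger gene, stood highest with 9 of 16 regions (56.2%), 4 of the 16 holding a control peak. Its members spanned percentiles 0.889 to 97.4 by Halo-Sox2 score and 8.49 to 85.5 by Halo-Sox2a score. Hipk3, a homeodomain-interacting kinase, had 5 of 10, and Mpzl2, an adhesion molecule, also 5 of 10. Arl14, a small GTPase gene, had 5 of 10 with no control peak at any of the 10. With so few regions, each such share has a wide counting error, and neighbouring genes such as Mpzl2 and Mpzl3 share members.

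Near the genes of 12 lists, 221 of 2333 union regions were members (9.47%, 8.35 to 10.7%), close to the 8.95% of all union regions. Of 171 listed symbols, 169 were found. The shares ran from 5.38% to 14.5%, and the interval of 1 list, FGF and ERK signalling, lay above the background value. That list had the highest share of the 12, and the intervals take no account of comparing 12 lists. It also shares Fgf4, Fgf5, Etv4 and Etv5 with other lists. Housekeeping loci stood at 10.9% (7.10 to 16.4%), above the share of 8 of the other 11 lists.

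**Figure D5:**
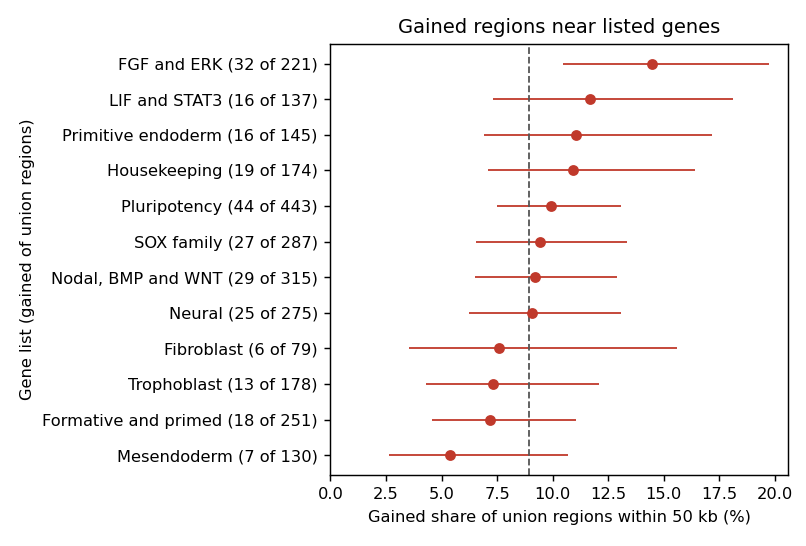
Share of union regions within 50 kb of listed genes that were gained with both (x axis, %), by gene list with the counts (y axis); lines are 95% Wilson intervals and the dashed line is the share over all union regions. FGF and ERK genes stand at 14.5% and mesendoderm genes at 5.38%, around a background of 8.95%.

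The FGF and ERK loci had 32 members among 221 union regions (14.5%, 10.4 to 19.7%), and each of the 15 genes had at least 1. Over all protein-coding genes, 11488 of 21631 had at least 1. Among the 12164 with 10 or more union regions, all but 3440 did. Of the 116 regions at the FGF and ERK loci with both transgene peaks, 27.6% were members, against 21.8% over all such regions. Of the ligands, Fgf5, a gene of the formative state, had 1 member of high score in both lists, 1069 and 359 (chr5:98292825-98293854), 39.2 kb from its start. Fgf8 had 2, the higher in both lists scored 483 and 73. Fgf4, the main FGF ligand of embryonic stem cells, had 3 of 20 union regions, scored 60 and 18, 211 and 86, and 54 and 56. Among the receptors, Fgfr2 had 3 members, of which the highest scored 617 and 302 inside the gene (chr7:130215882-130216526), and Fgfr1 had 3 and Fgfr3 1. The feedback inhibitors of the pathway were Spred1 with 4 members of 21 regions, Spry2 with 2 and Spry4 with 2. The Spred1 members scored from 140 to 405 with Halo-Sox2 and from 56 to 131 with Halo-Sox2a. The phosphatase gene Dusp4 had 1 member, scored 439 and 267, and the ETS factor genes Etv5 and Etv4 had 3 and 2. Within 20 kb of the genes the list's share was 11.2% (7.01 to 17.4%), an interval that includes the background, and within 100 kb it was 14.96% (11.6 to 19.01%).

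Most coding genes with 10 or more union regions had at least 1 member, and so did 23 of the 25 pluripotency genes. Pluripotency loci had 44 members of 443 union regions (9.93%, 7.48 to 13.1%). The median percentiles of these members were 43.1 and 35.7, somewhat under those of all members. The strongest lay 61.9 kb from the start of Tfcp2l1, a naive-state factor (chr1:118689536-118690229), with scores of 1193 and 281 and a control peak 1968 bp away. Nr5a2, an orphan nuclear receptor that binds the Pou5f1 locus, had 4 members of 21 regions, scored 31 to 371 and 39 to 97. Tbx3, a T-box factor, had 3, the highest scored 308 and 175. Klf2, a Krüppel-like factor, had 2, the higher by Halo-Sox2a score at 148 and 224. Jarid2, a cofactor of Polycomb repression, had 3. Dppa4 and Dnmt3l had none among 19 and 15 union regions.

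LIF and STAT3 loci had 16 members of 137 (11.7%, 7.32 to 18.1%). Stat3, the transcription factor of the pathway, had 3 of 9 regions, with scores of 119 and 142, 509 and 32, and 154 and 162. The kinase gene Jak1 had 2 of 6, the receptor gene Lifr 2 of 21 and the inhibitor gene Socs3 3 of 18, while Jak2 had none of 17. By Halo-Sox2 and Halo-Sox2a percentile, the Stat3 members stood at 42.6 and 62.9, 87.9 and 13.5, and 51.3 and 66.7. They thus differed in which list ranked them higher.

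The SOX family had 27 of 287 (9.41%, 6.55 to 13.3%). Sox5, a long gene of the SOXD group, had 7 of 58 union regions, all inside the gene. Their Halo-Sox2 scores ran from 39 to 1293 and their Halo-Sox2a scores from 25 to 362. Sox6 of the same group had 2, scored 889 and 350, and 973 and 48, and Sox13, also of that group, had 1 scored 728 and 278. Sox21, a SOXB gene that counteracts SOXB1 factors, had 2, scored 812 and 127, and 139 and 131. Sox1, Sox4, Sox8, Sox10, Sox12 and Sox15 had none among 16, 10, 3, 8, 17 and 16 union regions. Having none was common, as for 3440 of the 12164 coding genes with 10 or more union regions.

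Genes of differentiated lineages stood on both sides of the background. Primitive endoderm loci had 16 of 145 (11.03%), led by a region in Lamb1, a laminin chain, scored 725 and 166. Neural loci had 25 of 275 (9.09%), and a region inside Pax3, a neural crest factor, scored 898 and 478 (chr1:78143408-78144026). Trophoblast loci had 13 of 178 (7.30%), 5 of them at Tfap2c. Formative and primed loci had 18 of 251 (7.17%), among them a region in Dnmt3a, a DNA methyltransferase, scored 813 and 187. Mesendoderm loci had 7 of 130 (5.38%, 2.63 to 10.7%). T, Eomes and Mixl1 had none, among only 8, 14 and 4 union regions. Nodal, BMP and WNT loci had 29 of 315 (9.21%) and fibroblast loci 6 of 79 (7.59%). Each of these intervals includes 8.95%.

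Members also overlapped the hairpins of 8 microRNAs. No total of hairpins and no count for other classes is given here, so this number cannot be called high or low. Mir93 and Mir106b, neighbours in the Mcm7 cluster, shared a weak region scored 69 and 38. Mir7239 lay in the strongest by Halo-Sox2 score, 854 and 132, and Mir3098 in the strongest by Halo-Sox2a score, 209 and 280. Which transcript any of these regions belongs to was not tested.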

How the data were processed

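The data were 3 deposited peak lists from ATAC-seq, 1 library per group, each row a peak with its coordinates, name and score. The score is a whole number that the authors deposited with no scale named. Here it ordered peaks inside their own list and set the score minimums. Per the submitters' processing notes, the build was mm10 and the tools were STAR, SAMtools, MACS2 3.0.0a7, MACS3 and deepTools 3.3.0. Roles, thresholds and any transposase shift are not given in the sources used here. Read depth is unknown.

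Peaks sharing at least 1 bp were merged into union regions and classed by the lists present, with pandas 2.3.3 and NumPy 2.4.6, and the code was tested on simulated lists. Percentiles count the peaks of a list that rank below a peak, with ties at the better rank. Intervals are 95% Wilson intervals (statsmodels 0.14.6). Genes and promoter windows came from RefSeq tables of GRCm38.p6, matched to the lists by coordinates. A genome sequence was not used here, so motifs were counted in promoter windows, and windows of 200 and 500 bp around regions were not run. The windows covered 81.8% of protein-coding genes off chromosome 18, and gene starts and strands were used only where a window gave them. Promoters on chromosome 18 were not used here.

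Members and gene lists were chosen with earlier results of these data known. Named were the 10 members of highest mean percentile, the 10 of highest mean percentile within 1 kb of a coding gene start, the 5 largest runs with ties broken by higher mean percentile, the 15 genes with most members, the 15 with the highest share among genes with at least 10 union regions, and genes of the 12 lists. Some named items are not reported here. Prickle2, Gjb1, Myt1, Myh7b, Gm41048, 5430403N17Rik, Nin, St8sia4 and the microRNAs were chosen after their values were seen. Alternatives changed the overlap, merging gap, list size, score minimum and gene distances.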

Additional observations from a re-analysis of the deposited data

How the results depend on the processing

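The count of 11691 became 5672 with peaks above percentile 50, and 3011 of these (53.1%) overlapped no region of the main rule, because weak control peaks no longer counted. Other settings left between 8315 and 11532 regions. The share of regions in both transgene lists without a control peak was 21.8%, and 21.3% with peaks up to 500 bp apart merged, 18.4% with lists of equal size, 20.8% above percentile 25 and 21.1% above percentile 50. The share within 1 kb of a gene end was 9.67%, and 20.1% at 2.5 kb, 5.28% for protein-coding genes, 8.78% with lists of equal size and 12.6% above percentile 50. Inside protein-coding genes alone it was 55.3%, from 63.8%. The median distance to a control peak rose from 7877 to 14860 bp above percentile 50, and to 15597 bp when only the control list was restricted, since fewer control peaks remained. The SOX share of 18.1% fell to 11.4% above percentile 50. It was 16.0% in protein-coding promoters, 17.0% with 1 window per region and 16.9% for matches inside the region. The last 3 settings and the restricted control list were chosen after seeing the data. All gene list shares stayed within the interval of their 50 kb value at 20 and 100 kb. No paired analysis was possible because each group has 1 library and the labels give no replicate numbers. Depth is unknown, so a missing control peak does not show closed chromatin, and counting intervals ignore differences between libraries.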
